A study of Rattus norvegicus with 2 samples.

Results

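The complement receptors, C3 and leukocyte integrins described here were 8 genes of the 32623 in the deposited rat feature tables, found by their symbols: C3, Itgam, Itgb2, C3ar1, C5ar1, Itgal, Itgav and Itgb5. All 8 were detected. The cells were hippocampal microglia of male rat embryos at gestational day 20, collected with a flow sorter. There were 2 libraries, each a pool of 7 embryos: a dexamethasone library, from embryos under prenatal exposure to this glucocorticoid drug, and a control library without it. Strain, dose and sort antibodies are not given in the sources used here, so it is unknown whether the Itgam product CD11b, a usual target in sorting microglia, was used to collect these cells. With 1 library per group there was no replicate check and no test. Exposure, library and pool cannot be told apart, and every interval below is at the 95% level and covers counting error only. The values are UMIs, counts of distinct captured RNA molecules, scaled to CPM, counts per 1000000 UMIs of the cells named.

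Complement is a cascade of proteins that tags material for removal. Cleavage of C3 is its central step, leaving fragments bound to the tagged surface and releasing the small peptide C3a, while cleavage of C5 further down releases C5a. Integrins are pairs of an alpha and a beta chain that bind other cells, matrix or tagged material, and in the brain microglia take up complement-tagged synapses through complement receptor 3, the pair of Itgam and Itgb2.

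The promoters of Itgam and C3 are shown because these were the 2 members that differed by more than 1.3-fold between the libraries in microglia. Each runs from 250 bases before to 50 bases after the RefSeq start on GRCr8, in the direction of the gene, and capitals mark the motifs searched for. Itgam lies on the plus strand at chr1:192089342-192089641 and C3 on the minus strand at chr9:2201290-2201589.
Itgam: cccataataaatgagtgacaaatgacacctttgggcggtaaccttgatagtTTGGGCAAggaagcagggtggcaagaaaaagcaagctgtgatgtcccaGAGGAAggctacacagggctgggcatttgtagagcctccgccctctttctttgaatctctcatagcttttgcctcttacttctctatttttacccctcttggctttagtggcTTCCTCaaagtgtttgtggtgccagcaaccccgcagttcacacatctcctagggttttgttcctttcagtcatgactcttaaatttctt
C3: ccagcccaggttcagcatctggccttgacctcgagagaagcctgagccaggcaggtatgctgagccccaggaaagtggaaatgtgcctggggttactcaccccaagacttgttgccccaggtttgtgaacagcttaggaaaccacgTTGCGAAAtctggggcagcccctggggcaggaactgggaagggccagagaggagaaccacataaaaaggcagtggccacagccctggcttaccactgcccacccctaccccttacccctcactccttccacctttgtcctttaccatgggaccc

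Promoters were found for 5 of the 8 members (Itgam, C3, C3ar1, Itgav and Itgb5), and 3 motifs were searched for on both strands. The core of PU.1, a factor that myeloid cells depend on, was spelled GAGGAA and occurred in 27.6% of all 33469 rat promoters. It occurred 2 times in Itgam, 151 bases before the start on the strand of the gene and 39 bases before it on the other, and 1 time in Itgav. The C/EBP motif, bound by factors of myeloid cells and of the acute-phase response, was spelled TTGCNNAA and occurred in 10.6% of promoters. It occurred 1 time in Itgam, 199 bases before the start on the other strand, and 1 time in C3, 104 bases before the start on the strand of the gene. The half-site of the glucocorticoid receptor, AGAACA, occurred in 20.7% of promoters and in none of these 5 windows. A match describes letters and not a bound site, and a missing match says only that the letters are not in the window.

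Cells were grouped by raw counts of marker genes that included none of the 8 members. Microglia, gated on P2ry12, P2ry13, Tmem119, Gpr34, Siglech, Sall1 and Slc2a5, numbered 3084 of 4199 kept dexamethasone cells and 5934 of 8044 kept control cells, with medians of 9355 and 8105 UMIs per cell. They were split into 6 states by marker UMIs: P2ry12/Tmem119-high (737 and 1818 cells), axon-tract-like cells high in Spp1, Gpnmb or Lpl (255 and 457), chemokine-high cells with Ccl3 and Ccl4 (139 and 139), S phase (416 and 537), G2/M phase (513 and 1069) and the other microglia (1024 and 1914). Border macrophages, which live in the coverings and vessels of the brain, were gated on Cd163, Ms4a7, Clec10a, Ccl24 and Mrc1 and numbered 102 and 289. Their separate check list (F13a1, Stab1, Pf4, Dab2, Maf) summed to 4170 CPM in dexamethasone and 5142 CPM in control cells, against 862 and 768 CPM in microglia.

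The cells intended as granulocyte-like numbered 50 in the dexamethasone and 33 in the control library and were chosen by S100a8 and S100a9, calcium-binding proteins abundant in neutrophils and monocytes. Of 11 granulocyte genes, 9 were detected in the dexamethasone and 8 in the control cells, but Ltf and Mpo were at 0 in both. The granulocyte genes summed to 7508 CPM with dexamethasone and 7401 CPM in control, against 34.9 and 35.9 CPM in microglia. All 5 measured monocyte genes, of 8 listed, were present, with sums of 43203 and 45292 CPM, against 575 and 496 CPM in microglia. The markers thus did not separate granulocytes from monocytes, and these cells are called S100a8/S100a9-high. Erythroid cells numbered 91 and 117, with median depths of 17930 and 20780 UMIs. Neuron-like cells numbered 70 and 252, with median depths of 7141 and 3840 UMIs. Both should lack the leukocyte members and were taken as a guide to free RNA, which was not tested. Erythroid markers alone took 596116 and 664653 CPM in erythroid cells, which lowers the CPM of every other gene there. In microglia, mitochondrial genes took 3.14% of UMIs in the dexamethasone and 6.02% in the control library, and 5 cell barcodes occurred in both libraries. RNA of other cells also differed in microglia, with 191 and 378 CPM for the erythroid list, 4.54 and 27.2 CPM for the neuron-like list and 10.6 and 75.3 CPM for 3 choroid plexus genes, and its part in the results was not tested.

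Of the 8 members in microglia, 1 was more than 1.3-fold higher with dexamethasone (C3), 1 was more than 1.3-fold lower (Itgam), and 6 lay within that range. Among all 10537 genes with at least 100 UMIs in microglia, 6.17% were that much higher and 6.08% that much lower. The median log2 ratio of dexamethasone over control was 0.00 over the 8 members and -0.01 over all genes. The ratio of C3 was exceeded by 0.940% of all genes, and a ratio lower than that of Itgam was found in 3.20%.

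**Figure D1:**
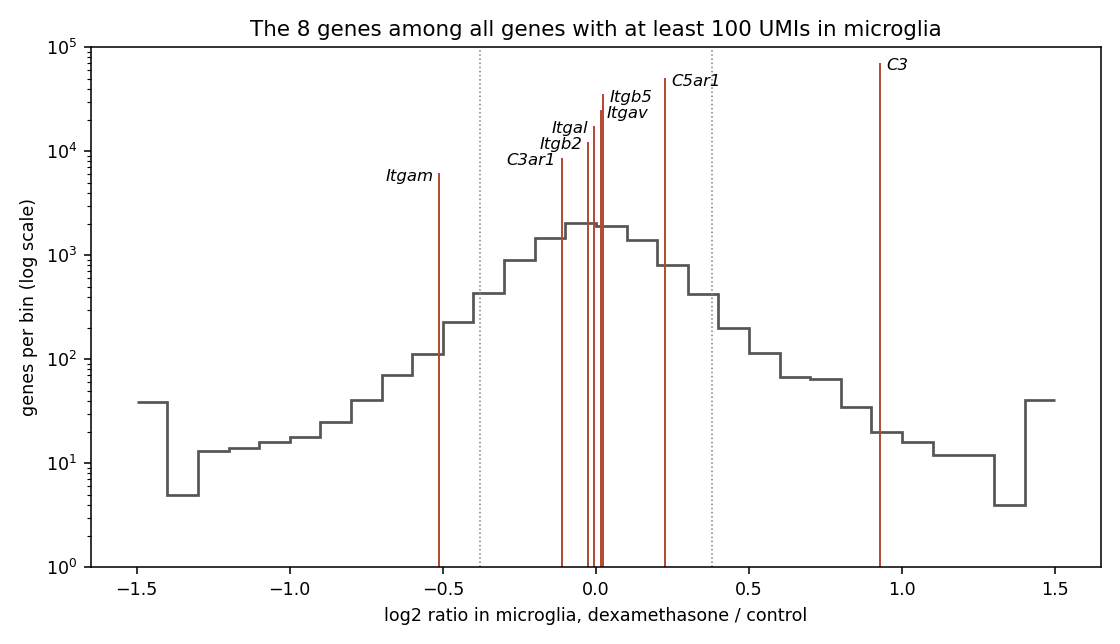
The grey outline counts all 10537 genes with at least 100 UMIs in microglia (vertical axis, log scale) by their log2 ratio of dexamethasone over control (horizontal axis, bins of 0.1, genes past 1.5 in either direction placed in the outermost bins). Red lines mark the 8 members and dotted lines a 1.3-fold difference; C3 lies beyond the right dotted line, Itgam beyond the left one, and the other 6 between them.

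C3, the component that the whole cascade converges on, was sparse in microglia and higher with dexamethasone. It had 330 UMIs or 10.3 CPM (9.25 to 11.5) in dexamethasone microglia, against 296 UMIs or 5.43 CPM (4.83 to 6.08) in control microglia. The intervals do not overlap, and the ratio was 1.90-fold (1.62 to 2.23), a log2 of 0.93. A C3 UMI was carried by 5.42% of dexamethasone and 3.17% of control microglia. With every cell thinned to 4500 UMIs, which left out 142 dexamethasone and 565 control microglia, these shares were 3.26% (2.65 to 3.97) and 2.09% (1.72 to 2.505), beside 0% and 0.86% of erythroid cells.

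In the cells taken as a guide to free RNA, C3 had few or no UMIs. In erythroid cells it had 0 UMIs in the dexamethasone library and 2 UMIs or 0.85 CPM in the control library. With dexamethasone, 0 of 91 cells leaves an exact interval for the share of cells with a UMI that reaches 3.97% at full depth. That bound lies below the share of dexamethasone microglia at full depth and above their thinned share, which is at unlike depth. In neuron-like cells C3 had 0 UMIs in the dexamethasone and 1 UMI in the control library. Among microglia, 103 dexamethasone and 139 control cells held 1 C3 UMI, and 64 and 49 cells held 2 or more. The 10 cells richest in C3 held 27.0% of the microglial C3 UMIs in the dexamethasone and 23.3% in the control library, so that few cells set much of the level.

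C3 was higher with dexamethasone in 6 of 6 microglial states, and the interval excluded 0 in 4 of them. It was at 15.9 CPM in dexamethasone against 7.15 CPM in control P2ry12/Tmem119-high microglia (log2 1.16, 0.75 to 1.56). Axon-tract-like cells had 16.4 against 7.02 CPM (log2 1.23, 0.63 to 1.84), and chemokine-high cells 19.4 against 9.12 CPM (log2 1.08, 0.09 to 2.16). The gap was widest in S phase, with 7.48 against 1.75 CPM from 40 and 11 UMIs (log2 2.10, 1.11 to 3.21). The gap was smallest in the other microglia, with 7.42 in dexamethasone and 5.97 CPM in control cells (log2 0.31, -0.19 to 0.81). Within both libraries C3 was lower in cycling cells than in P2ry12/Tmem119-high microglia, in S phase by 2.13-fold in the dexamethasone and 4.10-fold in the control library and in G2/M phase by 2.98-fold and 2.02-fold. With dexamethasone the chemokine-high, axon-tract-like and P2ry12/Tmem119-high states could not be separated from each other and stood above S phase. In control, S phase rested on 11 UMIs or 1.75 CPM, which is within the interval of the control erythroid cells (0.10 to 3.08 CPM). The S phase ratio between the libraries thus rests on a control value not separable from that level.

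The S100a8/S100a9-high cells held the highest C3 of the gated classes, at 345 CPM in the dexamethasone and 382 CPM in the control library. That was 33.4-fold (27.8 to 40.0) the level of microglia of the same library with dexamethasone and 70.3-fold (56.1 to 87.7) in control. A C3 UMI was found in 90.0% of these cells with dexamethasone and 90.9% in control. Between the libraries, C3 in these cells did not differ beyond counting error (log2 -0.15, -0.49 to 0.20). Although the 50 and 33 cells are few, they held 30.2% of all C3 UMIs of kept dexamethasone cells and 20.7% of those of kept control cells.

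S100a8 and S100a9 themselves were at 10.8 CPM in dexamethasone and 5.47 CPM in control microglia, so they moved with C3. Per 100 UMIs of these 2 markers, S100a8/S100a9-high cells held 0.289 C3 UMIs with dexamethasone and 0.596 in control. Microglia held 95.4 and 99.3. Whether RNA of the S100a8/S100a9-high cells contributed to C3 in microglia was not tested. The microglia gate capped them at 4 UMIs per cell. When microglia carrying any UMI of either marker were left out, 2777 dexamethasone and 5645 control cells remained and the log2 ratio of C3 was 1.02. The 5 monocyte genes summed to 521 CPM in microglia with 2 or more C3 UMIs with dexamethasone and 1673 CPM in control, beside 574 and 477 CPM in cells without C3, and their part in the C3 values was not tested.

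Itgam, the alpha chain of complement receptor 3 (CD11b), was lower with dexamethasone. It had 974 UMIs or 30.5 CPM (28.6 to 32.5) in dexamethasone microglia, against 2370 UMIs or 43.5 CPM (41.7 to 45.3) in control microglia. The intervals are apart, and the ratio was 0.702-fold, a log2 of -0.51 (-0.62 to -0.40). An Itgam UMI was carried by 25.3% of dexamethasone and 30.8% of control microglia, and at the thinned depth by 13.9% and 17.8%. Erythroid cells had 0 Itgam UMIs with dexamethasone and 2 in control, and neuron-like cells 0 UMIs with dexamethasone and 2.33 CPM in control.

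Itgam was lower with dexamethasone in 6 of 6 states, and the interval excluded 0 in 5. P2ry12/Tmem119-high microglia had 41.0 CPM with dexamethasone and 57.7 CPM in control (log2 -0.49, -0.70 to -0.30). The other microglia had 33.4 and 51.0 CPM (log2 -0.61, -0.82 to -0.41), the widest gap. Chemokine-high cells had 31.1 and 34.4 CPM (log2 -0.15, -0.76 to 0.47) and were not separated by counting error. With each state given the same weight in both libraries, the log2 ratio was -0.50 for Itgam and 0.96 for C3, close to the values without that weighting.

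Among the classes, Itgam was highest in P2ry12/Tmem119-high microglia in both libraries, above the next class beyond counting error. Axon-tract-like cells were lower than these by 2.33-fold (1.76 to 3.12) with dexamethasone and 2.36-fold (1.98 to 2.84) in control, at 17.6 and 24.4 CPM. S phase held 30.8 CPM with dexamethasone and 43.7 CPM in control, and G2/M phase held 22.6 and 29.0 CPM. Border macrophages had 21.8 and 23.0 CPM and S100a8/S100a9-high cells 28.2 and 37.5 CPM, from 21 and 53 and from 16 and 11 UMIs. Below the top class, no neighbours in the order differed beyond counting error with dexamethasone, and in control one gap did, between the other microglia and S phase.

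**Figure D2:**
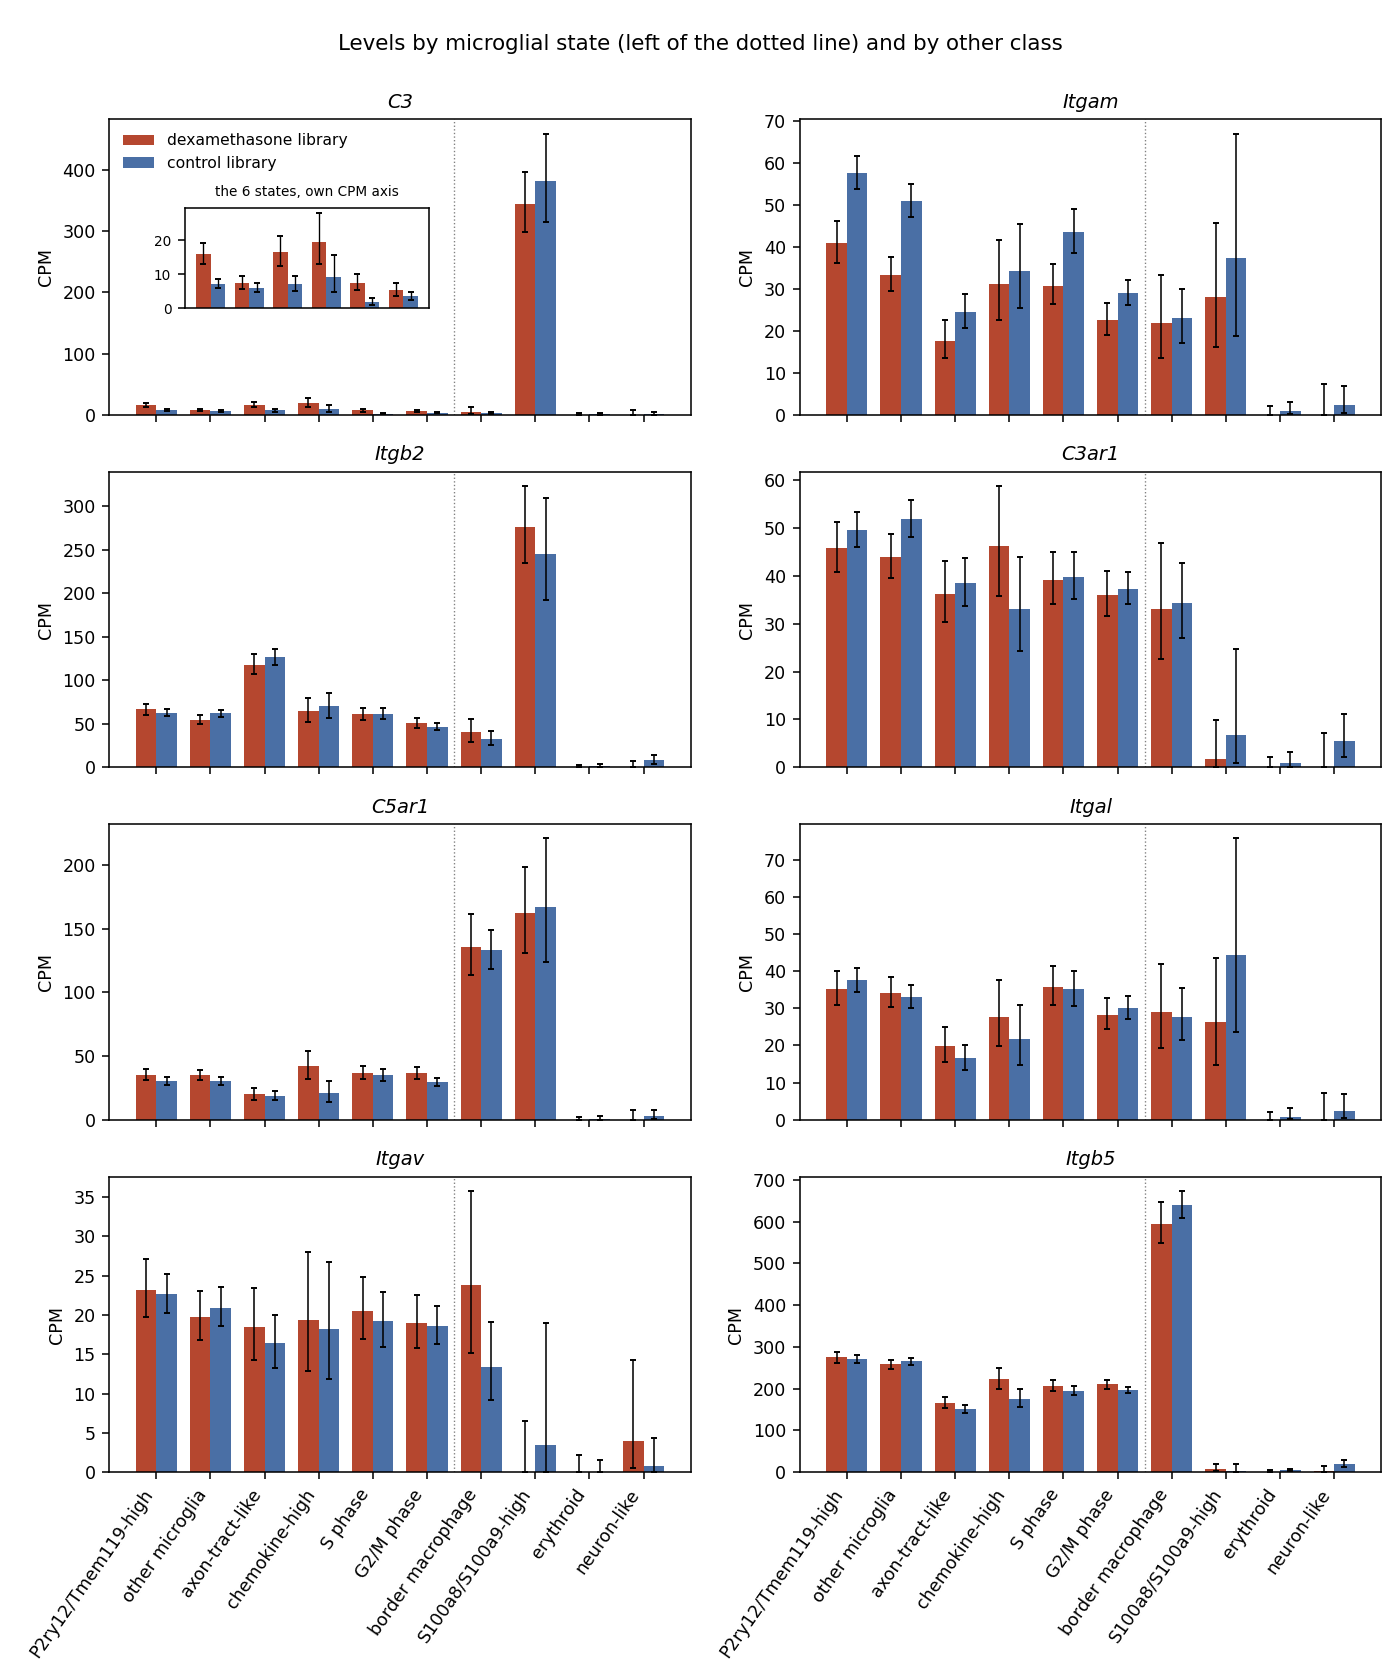
Each panel gives the level of 1 member in CPM (vertical axis) in the 6 microglial states, border macrophages, S100a8/S100a9-high, erythroid and neuron-like cells (horizontal axis), dexamethasone left of control, with exact Poisson 95% bars. C3 and Itgb2 peak in S100a8/S100a9-high cells, Itgb5 in border macrophages, and Itgam in P2ry12/Tmem119-high microglia; the inset of the C3 panel shows the 6 states on a scale of their own.

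Itgb2, the shared beta chain (CD18) that pairs with both Itgam and Itgal, did not differ between the libraries beyond counting error in microglia. It was at 64.8 CPM with dexamethasone (2068 UMIs) and 65.9 CPM in control (3591 UMIs), a log2 ratio of -0.02 (-0.10 to 0.05). Unlike its partner Itgam, it was higher in axon-tract-like cells than in P2ry12/Tmem119-high microglia. Axon-tract-like cells held 118 CPM with dexamethasone and 127 CPM in control, above the P2ry12/Tmem119-high state (66.4 and 62.7 CPM) by 1.78-fold (1.55 to 2.03) with dexamethasone and 2.02-fold (1.83 to 2.23) in control. The thinned share of axon-tract-like cells with an Itgb2 UMI was 34.1% and 36.9%, against 24.1% and 23.5% of all microglia. Erythroid cells held 0 and 1.28 CPM and neuron-like cells 0 and 7.76 CPM.

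In S100a8/S100a9-high cells Itgb2 was higher still, at 276 CPM with dexamethasone and 245 CPM in control, 4.27-fold (3.61 to 5.02) and 3.73-fold (2.91 to 4.71) the level of microglia of the same library. Border macrophages were lower than microglia, with 40.4 and 33.0 CPM, by 1.60-fold and 1.998-fold. The order S100a8/S100a9-high cells, axon-tract-like cells, then every other class was the same in both libraries, and both gaps exceeded counting error. Among microglia, Itgb2 was lower in cells carrying an F13a1 UMI than in the rest, by a log2 of -0.87 with dexamethasone and -0.46 in control. Such cells made up 22.5% of dexamethasone and 4.40% of control microglia, and with them left out the log2 ratio of Itgb2 between libraries was 0.14, that of C3 1.11 and that of Itgam -0.49.

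C3ar1, the receptor of C3a, was a gene of microglia and border macrophages. In microglia it was at 41.2 CPM with dexamethasone (1317 UMIs) and 44.5 CPM in control (2427 UMIs), a log2 ratio of -0.11 (-0.21 to -0.01), inside the 1.3-fold range. The 6 states ran between 36.1 and 46.3 CPM with dexamethasone and between 33.0 and 51.9 CPM in control. Border macrophages lay near that range, at 33.2 and 34.3 CPM. S100a8/S100a9-high cells held 1 and 2 C3ar1 UMIs, or 1.76 and 6.82 CPM, so that of the gated leukocytes the class richest in C3 was the poorest in this receptor. In 5 of 6 states C3ar1 was lower with dexamethasone; the exception was the chemokine-high state, with 46.3 against 33.0 CPM (log2 0.49, -0.07 to 1.06).

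C5ar1, the receptor of C5a and a chemoattractant receptor of neutrophils and macrophages, was higher outside microglia. Border macrophages held 136 CPM with dexamethasone and 133 CPM in control, 3.97-fold (3.29 to 4.76) and 4.55-fold (4.01 to 5.14) the level of microglia. S100a8/S100a9-high cells held 162 and 167 CPM, 4.73-fold (3.78 to 5.86) and 5.71-fold (4.204 to 7.58). These 2 classes could not be separated from each other, and both stood above every microglial state. At the thinned depth a C5ar1 UMI was carried by 42.0% and 34.96% of border macrophages, against 13.8% and 11.8% of microglia.

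In microglia C5ar1 was at 34.2 CPM with dexamethasone (1093 UMIs) and 29.3 CPM in control (1596 UMIs). The log2 ratio was 0.23 (0.11 to 0.34), which excludes 0 by counting error but lies inside the 1.3-fold range, and 14.9% of all genes had a higher one. All 6 states were higher with dexamethasone, 2 of them beyond counting error. In the chemokine-high state C5ar1 was at 42.2 against 21.1 CPM (log2 1.001, 0.35 to 1.68), and in G2/M phase at 36.4 against 29.7 CPM (log2 0.30, 0.05 to 0.53). Axon-tract-like cells had the lowest level of the 6 states in both libraries, 19.8 and 18.7 CPM.

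**Figure D3:**
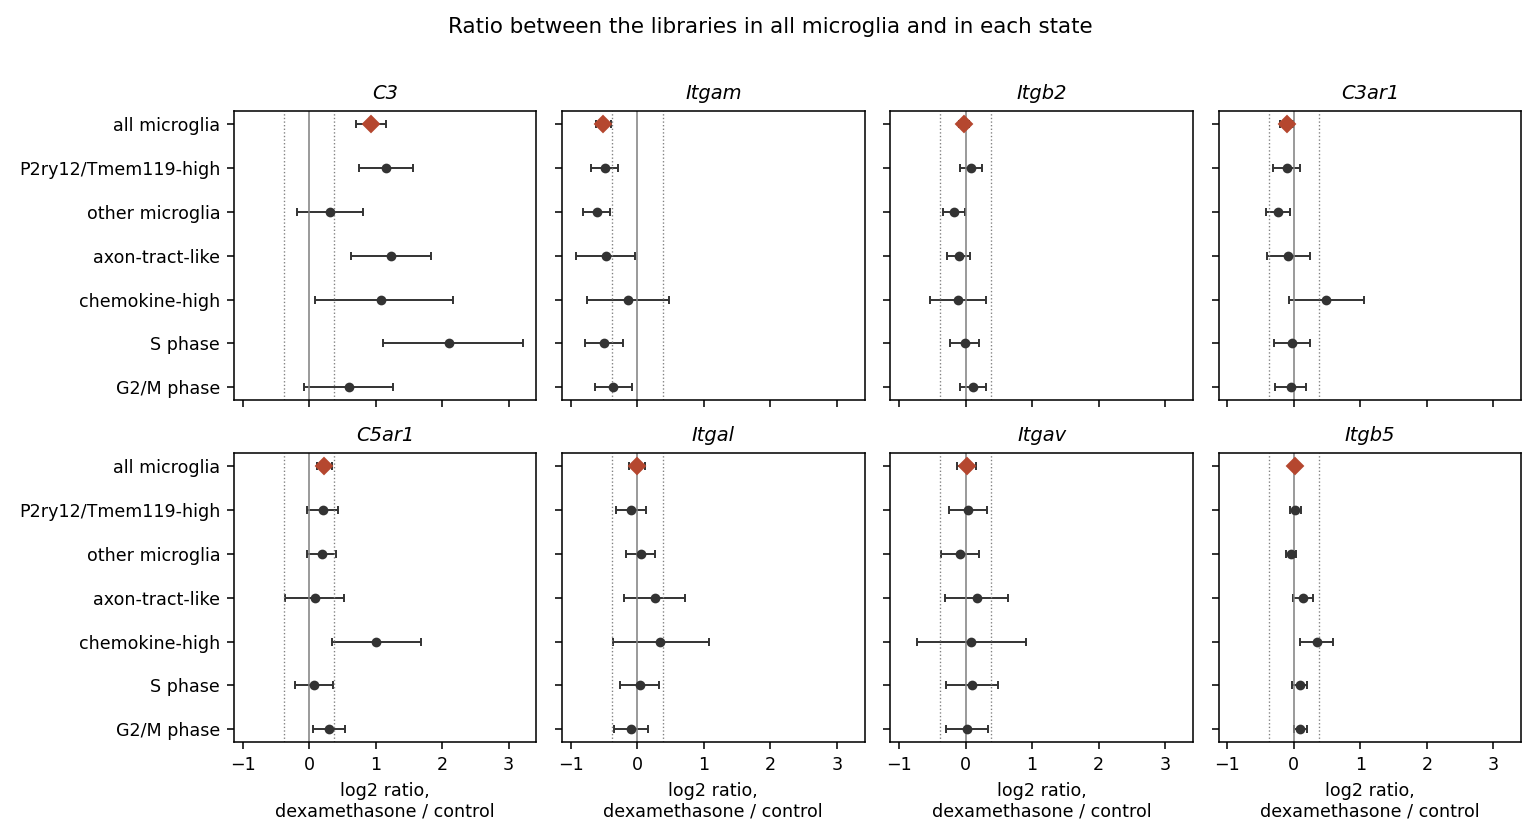
The log2 ratio of dexamethasone over control (horizontal axis) is given for each member in all microglia (diamond) and in each of the 6 states, with exact conditional binomial 95% bars and dotted lines at 1.3-fold in either direction. All 6 states of C3 lie right of 0 and all 6 of Itgam left of it.

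Itgal, the alpha chain of LFA-1 (CD11a), by which leukocytes hold on to ICAM proteins of other cells, did not differ between the libraries beyond counting error. Microglia had 31.6 CPM with dexamethasone (1009 UMIs) and 31.7 CPM in control (1729 UMIs), a log2 ratio of -0.01 (-0.12 to 0.11). Its pattern over states resembled that of Itgam: axon-tract-like cells were lower than P2ry12/Tmem119-high microglia by 1.77-fold with dexamethasone and 2.27-fold in control, at 19.8 against 35.2 CPM and at 16.5 against 37.6 CPM. Border macrophages held 29.0 and 27.8 CPM and S100a8/S100a9-high cells 26.4 and 44.3 CPM, neither separable from microglia by counting error. No neighbours in the order of classes differed beyond counting error in either library. Cells with an F13a1 UMI had more Itgal than the rest, by a log2 of 0.66 with dexamethasone and 0.51 in control, and with them left out the log2 ratio of Itgal between libraries was -0.18.

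Itgav, the alpha chain that with several beta chains binds vitronectin and other proteins with an RGD sequence, was low. Microglia had 20.3 CPM with dexamethasone (648 UMIs) and 20.1 CPM in control (1095 UMIs), and the log2 ratio of 0.02 (-0.13 to 0.16) did not differ from 0 beyond counting error. The 6 states ran from 18.4 to 23.2 CPM with dexamethasone and from 16.4 to 22.6 CPM in control. In control, axon-tract-like and G2/M cells lay below P2ry12/Tmem119-high microglia by 1.38-fold and 1.21-fold, beyond counting error. With dexamethasone neither was separable from them. Border macrophages lay below microglia in control by 1.49-fold (1.05 to 2.21), and with dexamethasone they were not separable. S100a8/S100a9-high cells held 0 UMIs with dexamethasone, where 3 counts would be 5.28 CPM, and 1 UMI in control. In border macrophages Itgav was at 23.8 CPM with dexamethasone (23 UMIs) and 13.4 CPM in control (31 UMIs), a log2 ratio of 0.83 with an interval that reached 0 (-0.02 to 1.65).

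Itgb5, the beta chain that pairs with the Itgav product into a receptor for vitronectin and milk-fat globule proteins, was carried by most microglia and marked border macrophages more strongly. Microglia had 231 CPM with dexamethasone (7390 UMIs) and 228 CPM in control (12417 UMIs), a log2 ratio of 0.02 (-0.02 to 0.06). Border macrophages had 595 CPM with dexamethasone and 640 CPM in control, 2.57-fold (2.36 to 2.80) and 2.81-fold (2.66 to 2.96) the level of microglia. S100a8/S100a9-high cells held 5 UMIs or 8.80 CPM with dexamethasone and 1 UMI or 3.41 CPM in control. Neuron-like cells held 3.94 and 19.4 CPM, and in both libraries their interval overlapped that of the S100a8/S100a9-high cells. These few UMIs were thus not separable from the neuron-like level. Erythroid cells held 2 UMIs or 1.18 CPM with dexamethasone and 11 UMIs or 4.69 CPM in control. Whether the UMIs of the S100a8/S100a9-high cells were free RNA was not tested.

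Among the states, Itgb5 was highest in P2ry12/Tmem119-high microglia (275 and 271 CPM) and the other microglia (258 and 265 CPM), which were not separable. It was lowest in axon-tract-like cells, at 166 CPM with dexamethasone and 151 CPM in control, 1.66-fold and 1.79-fold below P2ry12/Tmem119-high microglia. The chemokine-high state was the one with the widest gap between libraries, 223 against 176 CPM (log2 0.34, 0.10 to 0.59).

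At the surface these chains work as pairs, and the shares of cells with UMIs of both chains were counted at the thinned depth of 4500 UMIs. Sparse counts miss expressing cells, so the shares describe detection and not co-expression itself. Itgam and Itgb2 were found together in 3.70% of dexamethasone and 4.19% of control microglia. The product of the separate shares was 3.35% and 4.19%, so that the joint share was near what the separate shares give. In S100a8/S100a9-high cells both were found in 8 of 47 dexamethasone and 5 of 29 control cells, 17.0% and 17.2%. Itgb2, with or without Itgam, was found in 76.6% and 58.6% of these cells. Axon-tract-like cells held both chains in 4.37% and 5.27%, the lower Itgam standing beside the higher Itgb2.

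Itgal and Itgb2 were found together in 3.37% of dexamethasone and 3.24% of control microglia, beside products of 3.17% and 3.10%. Itgav and Itgb5 were found together in 6.53% (5.66 to 7.48) of dexamethasone and 5.48% (4.88 to 6.12) of control microglia, beside products of 5.85% and 5.42%. In border macrophages the same pair was found in 13 of 100 dexamethasone and 13 of 246 control cells, 13% (7.11 to 21.2) and 5.28% (2.84 to 8.87). The intervals overlap, and the products of the separate shares were 13.5% and 4.88%, near the joint shares. Itgav was found in 15.0% and 5.28% of these cells and Itgb5 in 90.0% and 92.3%.

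**Figure D4:**
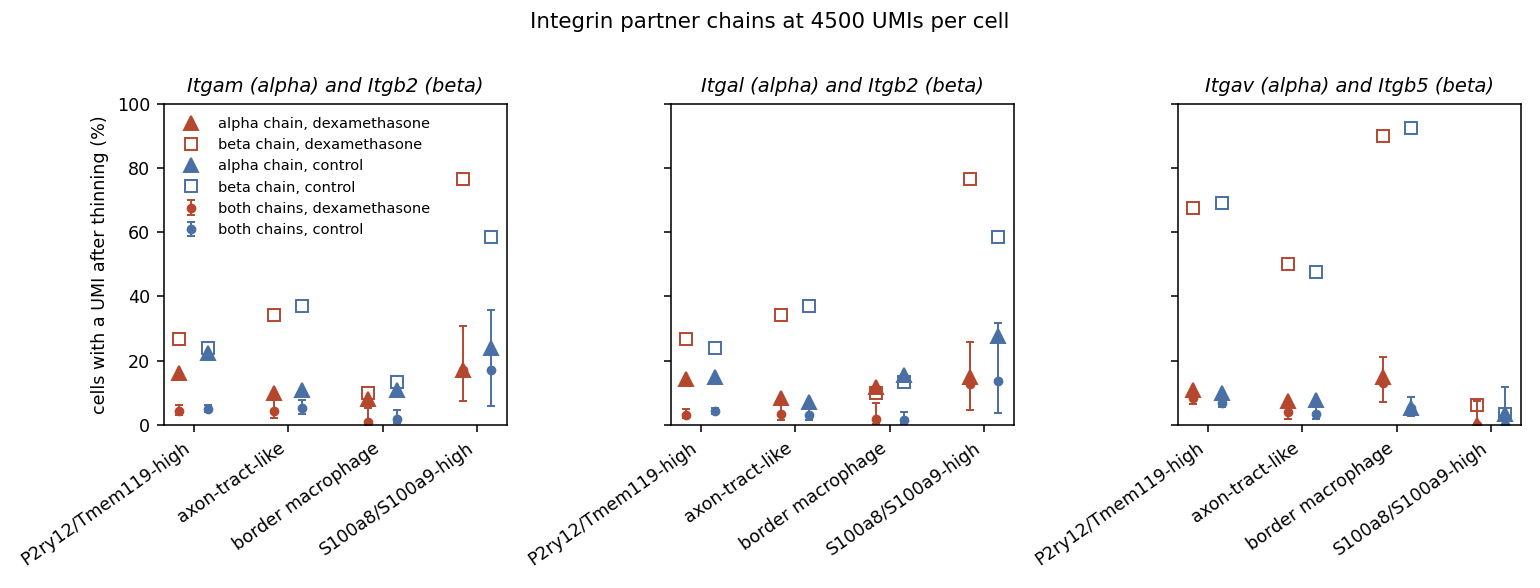
Shares of cells (vertical axis, percent, each cell thinned to 4500 UMIs) with a UMI of the alpha chain (triangles), the beta chain (open squares) and both (circles, with exact Clopper-Pearson 95% bars) are given for each pair and class, dexamethasone left of control. The share with both chains of the Itgav and Itgb5 pair in border macrophages was 13% with dexamethasone (7.11 to 21.2) and 5.28% in control (2.84 to 8.87). These intervals overlap.

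In border macrophages and S100a8/S100a9-high cells no measured member differed between the libraries beyond counting error. In border macrophages 7 of the 8 had at least 20 UMIs over both libraries, C3 having 5 in each; 1 was more than 1.3-fold higher (Itgav) and 0 were lower, beside 15.7% higher and 21.4% lower among 7905 genes. In S100a8/S100a9-high cells 5 members were measured; 0 were higher and 2 lower, beside 18.4% and 27.2% among 4064 genes. The lower ones were Itgam (log2 -0.41, -1.61 to 0.84) and Itgal (log2 -0.75, -1.92 to 0.44), neither beyond counting error.

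The rest of the pathway was read from lists chosen by role. Of the complement components other than C3, 13 were measured in microglia. Of these, 3 were more than 1.3-fold higher with dexamethasone and 0 were lower, beside 6.17% and 6.08% of all 10537 genes. The median log2 ratio of the components was 0.33, and that of all genes -0.01. The higher ones included C1qa, at 7920 against 5652 CPM (log2 0.49), and C1qc, at 6675 against 4514 CPM (log2 0.56), which encode chains of the molecule that starts the classical pathway. The remaining one was Cfb, the protease of the alternative pathway that acts together with C3, at 3.35 CPM with dexamethasone (107 UMIs) and 0.90 CPM in control (49 UMIs); it lay under the count minimum for naming and was picked after its values were seen. C1qb, the other C1q chain, was at 10124 against 8065 CPM (log2 0.33), short of 1.3-fold.

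Of 6 complement regulators measured in microglia, 0 were higher and 1 was lower, beside 6.17% and 6.08% of all genes. The lower one was Serping1, the inhibitor of the C1 proteases, at 6.29 against 8.93 CPM (log2 -0.50). Cr1l, a membrane regulator of C3 convertases in rodents, was at 73.9 against 81.2 CPM (log2 -0.14). Of 4 other receptors measured, 1 was higher, Itgax, the alpha chain of complement receptor 4, at 3.16 against 2.40 CPM (log2 0.40, 0.01 to 0.78). C5ar2, the second receptor of C5a, was at 4.63 against 4.64 CPM, and the C1q-binding proteins Calr and Lrp1 had log2 ratios of -0.16 and 0.10.

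Of 9 other integrin chains measured in microglia, 1 was higher and 2 were lower past 1.3-fold, beside 6.17% and 6.08% of all genes. The median log2 ratio of these chains was 0.00. The higher one was again Itgax, and the lower ones were Itgb3, an alternative partner of the Itgav product, at 2.29 against 3.17 CPM (log2 -0.47, -0.89 to -0.07), and Itgb7, at 1.16 against 1.61 CPM from 37 and 88 UMIs (log2 -0.48, -1.07 to 0.09, an interval that includes 0), which was named after its values were seen. The abundant Itgb1 and Itga6, which pair into a laminin receptor, had log2 ratios of -0.15 and -0.01. Of 29 genes of integrin activation and adaptors, 2 were higher and 1 lower, near the shares of 6.17% and 6.08% over all genes. The higher ones were Cyth1, a regulator of beta-2 integrin adhesion, at 13.7 against 9.92 CPM, and the kinase Ptk2b at 25.0 against 18.0 CPM. The lower one was Lims1, a scaffold at adhesion sites, at 17.8 against 24.8 CPM. Tln1, which activates integrins by binding their beta tails, was at 540 against 669 CPM (log2 -0.31), inside the range. Of 11 ligands measured, 0 passed 1.3-fold in either direction, and Spp1, a ligand of Itgav integrins, was at 342 against 266 CPM (log2 0.36).

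The genes most like each member were those with the highest Pearson r of log2(CPM + 1) over 20 profiles, the 10 classes and states in each library, among 7786 genes. These profiles share libraries and depth, so the values describe and carry no test. They also include erythroid and neuron-like cells, where the members were low, so a high r can reflect presence against absence. A high r therefore need not mean a like pattern over the microglial states. The genes nearest to Itgam were Cd37 (0.989), Cd14 (0.986) and Itgal (0.985), and those nearest to Itgal were Tbxas1 (0.990), Casp1 (0.988) and Cd14 (0.988). The nearest to Itgb2 were Capg (0.988), Ncf1 (0.986) and Abca7 (0.977), not its alpha chains, and its r with Itgam was 0.919. For C3 they were P2ry2 (0.960), Fcnb (0.947) and Aldh2 (0.943), of which Fcnb encodes a ficolin, a recognition molecule of the lectin pathway.

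The genes nearest to C3ar1 were Arhgap22 (0.988), Trem2 (0.985) and Tmem176b (0.983), and Trem2 encodes a lipid receptor of microglia. For C5ar1 they were Cybb (0.991), Icam2 (0.977) and Pstpip1 (0.972), of which Cybb encodes a chain of the phagocyte oxidase. For Itgb5 they were C1qc (0.990), Hpgds (0.989) and Cp (0.988), and for Itgav Ier3 (0.963), Foxr1 (0.962) and Acsf2 (0.959). Among the members, C3ar1 and Itgb5 had an r of 0.939 and Itgav and Itgb5 one of 0.898, whereas C3 and Itgb5 had one of -0.03.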

How the data were processed

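Cells had been sorted by flow cytometry and captured in droplets, and per the submitters' processing notes reads were processed with Cell Ranger 7.0.0 against Rnor_6.0. The deposited values are raw UMI counts per gene and barcode, with 32623 genes. The dexamethasone library held 4328 barcodes and 42611920 UMIs and the control library 8342 barcodes and 69940778 UMIs. No annotation of that build was used; promoters are RefSeq's on GRCr8.

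Kept cells had 200 or more genes and no more than 20% mitochondrial UMIs, and were gated on summed UMIs of marker genes. Microglia had at least 3 UMIs of the 7 gate genes and at most 1 of 4 border markers. Border macrophages had at least 3 UMIs of Cd163, Ms4a7, Clec10a and Ccl24, at least 5 of Mrc1 and at most 4 of the microglia genes; Folr2, Lyve1 and Mrc1 alone also occurred in many microglia. S100a8/S100a9-high cells had at least 20 UMIs of these 2 genes. States needed at least 3 UMIs of P2ry12 and Tmem119, 5 of Ccl3 and Ccl4, 10 of Spp1, Gpnmb and Lpl, 8 of the S phase or 10 of the G2/M genes, a later state overriding an earlier one. Cells with microglia and border markers together (4.79% of dexamethasone and 3.02% of control cells) were left out, 14.3% and 14.6% passed no gate, and no doublet caller was run.

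Counts were summed per class and library and scaled to CPM by all UMIs of those cells. Intervals are exact Poisson for CPM, Clopper-Pearson for shares and conditional binomial for ratios, and 0 UMIs in a library were set to 3 counts in a ratio. PCR duplicates were already removed by UMI. The members and lists were chosen with earlier results of these data known, and gate thresholds were set after the marker sums were viewed. Of 143 list entries 132 were found by symbol. Named genes were the 8 members, the 3 of highest CPM in each list, list genes past 1.3-fold with at least 200 UMIs, and the 3 genes most like each member among those with at least 20 CPM in a profile, clone-type names set aside; 1 regulator that this rule names is not reported here. Alternatives changed the cell filter, gates, denominator, scaling (TMM from edgeR 4.0.16 in R 4.3.3), depth, deepest cells, cycling cells, count minimum and fold; leaving out cells with F13a1 or with S100a8 or S100a9 UMIs was added after seeing the data. The steps were checked on simulated data and used Python 3.11.15, numpy 2.4.6, scipy 1.17.1, pandas 2.3.3 and matplotlib 3.10.9.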

Additional observations from a re-analysis of the deposited data

How the results depend on the processing

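Across 14 alternatives the log2 ratio in microglia ran from 0.77 to 1.11 for C3 and from -0.58 to -0.39 for Itgam, and C3 and Itgam kept their direction under each of them. C5ar1 ran from 0.16 to 0.26. The other 5 members lay near 0 and changed sign between settings, with Itgb2 from -0.07 to 0.14, C3ar1 from -0.15 to 0.00, Itgal from -0.18 to 0.02, Itgav from -0.04 to 0.12 and Itgb5 from -0.03 to 0.05. With cells thinned to 4500 UMIs the log2 ratio of Itgam was -0.39 and that of C3ar1 0.0041. With mitochondrial UMIs left out of the total, that of Itgb5 was -0.0203. With F13a1-carrying microglia left out, Itgb2 was at 0.14, Itgal at -0.18 and Itgb5 at -0.0331. The cause was not tested. At a 1.5-fold limit 1 member, C3, lay past it in place of 2, and with at least 20 UMIs as the count minimum the background was 9.41% higher and 9.74% lower. Other scalings moved the median of all genes to between -0.05 and 0.00. No paired analysis was possible because each group is 1 library.

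Depth limits C3 most, with 330 dexamethasone and 296 control UMIs in microglia, and the small border and S100a8/S100a9-high classes, where several members had under 20 UMIs. The libraries differed in mitochondrial share and in cell number, and these differences cannot be told apart from the exposure.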

Other observations

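In border macrophages Spp1, a ligand of Itgav integrins, was at 192 CPM with dexamethasone (185 UMIs) and 7.37 CPM in control (17 UMIs). Of the 185 UMIs, 159 came from 1 cell, and 10 cells carried the gene in each library, so the value describes that cell. Itga6, an alpha chain that pairs with the Itgb1 product, was at 206 CPM with dexamethasone and 85.4 CPM in control border macrophages (log2 1.27, 0.98 to 1.56), and it was carried by 80 of 102 and 118 of 289 cells. Both genes were picked after their values were seen, and neither difference has a replicate check.

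In S100a8/S100a9-high cells Ngp, which encodes a protein of neutrophil granules, was at 96.8 CPM with dexamethasone and 1186 CPM in control, while S100a8 and S100a9 together were at 119356 and 64099 CPM. These values thus differed between the libraries within this small class. S100a8 and S100a9 were the genes that chose its cells, and for Ngp no interval or spread over cells was taken. The part of these genes in the values of the members there was not tested.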
